A study of Saccharomyces cerevisiae with 5 samples.

Results

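The nuclear genes for proteins of the yeast mitochondrial ribosome were followed through 5 arrays that set RNA precipitated with zzYra1 against RNA precipitated with zzMex67. The genes were taken by symbol: every gene named MRPL, MRPS or RSM with a number, and 11 further MRP genes. This naming rule was set with earlier results of these data known. The rule found 65 genes, all of them on the platform used for replicate 1, which carried 5583 named genes. The platform used for replicates 2 to 5 held 63 of the 65 among its 5539 named genes. MRP10 and MRPL15 were measured on replicate 1 alone. By the unified names of ribosomal proteins, 37 genes encode large subunit proteins and 27 encode small subunit proteins. The last, RSM22, encodes a methyltransferase-like protein that acts in small subunit assembly.

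The mitochondrial ribosome makes a handful of membrane proteins of the respiratory chain and the ATP synthase from messages of mitochondrial DNA. In budding yeast all but one of its proteins are encoded in the nucleus, so their mRNAs must leave the nucleus before cytosolic ribosomes translate them and the proteins are imported into the organelle. Mex67 is the main mRNA export receptor, Yra1 is an RNA-binding adaptor that works with it, and the cytoplasmic protein Puf3 is known to bind many mitoribosomal protein mRNAs.

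Each of the 5 arrays was a 2-colour hybridisation of Saccharomyces cerevisiae cDNA, with the zzYra1 precipitate in channel 1 and the zzMex67 precipitate in channel 2. The arrays form 1 group, with no untagged or unprecipitated control among them. The labels give no strain, growth, agent or dye, and do not say whether the arrays came from separate cultures, so the p-values cover the spread of these arrays alone, possibly a technical one. Nothing in them settles which channel was divided by the other, and "higher" and "lower" refer only to the deposited ratio, expressed as log2 distance from the median of its array.

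Agreement between arrays and between spots bears on every value below. Across genes the arrays hardly resembled each other: over the pairs of arrays Pearson's r lay between -0.06 and 0.13 for all genes, and between -0.27 and 0.20 for the 63 mitoribosomal genes. These correlations are across genes, which are not independent replicates, and replicates 3 and 5 carry a common code in their titles. On replicates 2 to 5 each mitoribosomal gene was printed as 2 adjacent spots, whose values correlated at 0.94, 0.66, 0.61 and 0.92. On replicate 1, 16 of these genes had 2 spots, and those lay at least 1152 spot numbers apart. There the correlation over the 16 genes was -0.26 and the median gap between a gene's spots was 1.17 log2 units. Over the 1100 genes with 2 spots on that array the correlation was 0.08. Consecutive spots of different names correlated at 0.48 there. Adjacent spots are not comparable with spots far apart, so these correlations do not rank the arrays by repeatability. Replicate 1 is given beside the other arrays as a value, with low repeatability between its distant spots.

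As a group the mitoribosomal genes lay at the middle of the ratio distribution. Their median differed from the median of the other genes by 0.12, 0.05, -0.07 and 0.07 on replicates 2 to 5, a mean of 0.04 ± 0.08 (SD, n = 4). On replicate 1 the difference was -0.09. The group was thus slightly above the other genes on 3 of the 4 arrays of 1 platform and slightly below them on both remaining arrays. Of the 63 genes 39 had a mean above 0 and 24 a mean below it, 61.9% against 48.7% of all genes. The means were also small: their median size was 0.17 log2 units, against 0.32 over all genes. With the median of the surrounding spots removed, as described below, the sizes were alike, at 0.19 and 0.20.

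Single genes were tested with limma, each gene's 4 ratios against 0, with Benjamini-Hochberg adjustment over all 5539 genes. No mitoribosomal gene passed an adjusted p under 0.05, and neither did any other gene on the arrays (0%), the smallest adjusted p being 0.834. At an unadjusted p under 0.05, 2 of the 63 (3.17%) were higher, against 1.43% of all genes. None of the 63 was lower, against 3.99% of all genes. A ratio above 0 on all 4 arrays was found for 5 of the 63 (7.94%), where 7.11% of all genes had one. A ratio below 0 on all 4 was found for 2, where the share of all genes was 7.13%. Over all 5 arrays 3 were always above 0 and 0 always below, beside 3.29% and 3.32% of all genes. Means more than 1 log2 unit from 0 numbered 3, or 4.76%, where all genes had 8.14%. The counts of the 63 genes were thus near the background of all genes or under it, with about 1 gene more where they exceeded it.

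**Figure D1:**
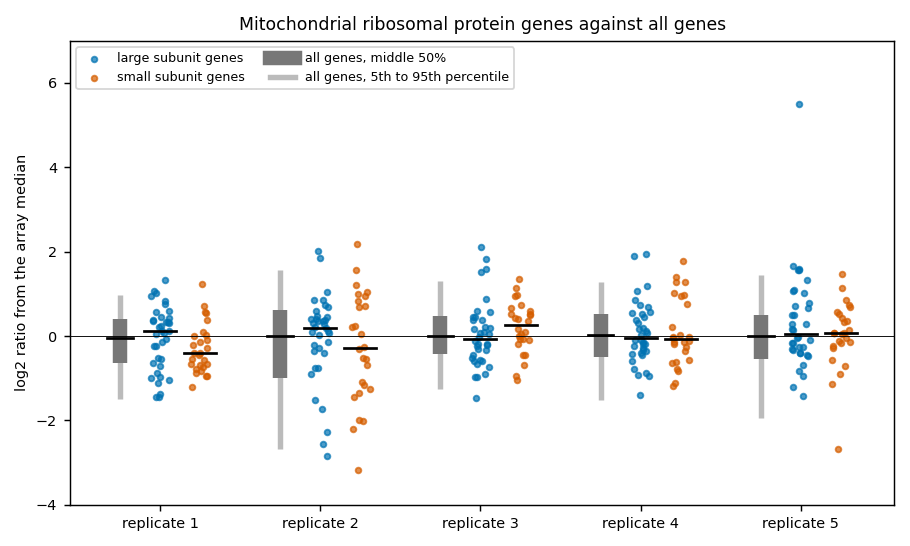
Log2 ratio from the array median (vertical axis) of the large and small subunit genes on each of the 5 arrays, with the middle 50% and the 5th to 95th percentile of all genes in grey; black lines are medians. Most mitoribosomal genes lie within the grey range on each array, and MRP7 at 5.51 on replicate 5 is the highest point of the group.

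The widest ratios differed from array to array. On replicate 2 the 63 genes ran from -3.18 (RSM7) to 2.18 (MRP4). Replicate 3 ran from -1.46 (MRP7) to 2.10 (MRPL36), replicate 4 from -1.39 (MRPL16) to 1.95 (MRPL25), and replicate 5 from -2.67 (MRPS18) to 5.51 (MRP7). MRP7 was the lowest gene on one of these arrays and the highest on another, and no other gene held an extreme on more than 1. The SD over the 63 genes was 1.20, 0.75, 0.78 and 1.07 on replicates 2 to 5, and that over all genes was larger on each of the 4. Replicate 1 ran from -1.46 (MRPL31) to 1.32 (MRPL32).

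RSM23 and MRPL32 were the pair with an unadjusted p under 0.05. RSM23 encodes mS29, a GTP-binding small subunit protein whose human homologue is DAP3. Its ratios were 0.70, 1.34, 1.77 and 1.14 on replicates 2 to 5 and -0.09 on replicate 1. All 4 arrays of the shared platform were well above 0 and replicate 1 was at the array median. The mean was 1.24 ± 0.44 (SD, n = 4; 95% interval 0.45 to 2.03), a 2.36-fold ratio with limma's unadjusted p = 0.00745 and adjusted p = 0.834. The labels give the dyes of no array and do not mark replicate 2 as swapped. Its sign alone was turned as an alternative, with which RSM23 had a mean of 0.89 and an unadjusted p of 0.0951 by limma.

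MRPL32 encodes bL32m, a large subunit protein that has to be matured by the m-AAA protease of the inner membrane before the subunit can be completed. Its ratios were 0.21, 1.82, 1.07 and 1.56 on replicates 2 to 5 and 1.32 on replicate 1, where it was the highest of the 65 genes. Every array was above 0, replicate 2 only narrowly, from spots at 0.99 and -0.57. The mean was 1.16 ± 0.71 (SD, n = 4; 95% interval 0.27 to 2.06), with limma's unadjusted p = 0.0175. The high value of replicate 3 came from spots at 3.27 and 0.37. On replicate 2 the spot at 0.99 held a value identical to that of a neighbouring spot, and on replicate 5 both spots did. Without those values replicate 5 dropped out, and the mean of the remaining arrays was 0.77 with limma's unadjusted p = 0.215. Without replicate 3 the mean was 0.95 (unadjusted p = 0.0860, limma), and without replicate 5 it was 1.03 (unadjusted p = 0.0626, limma).

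**Figure D2:**
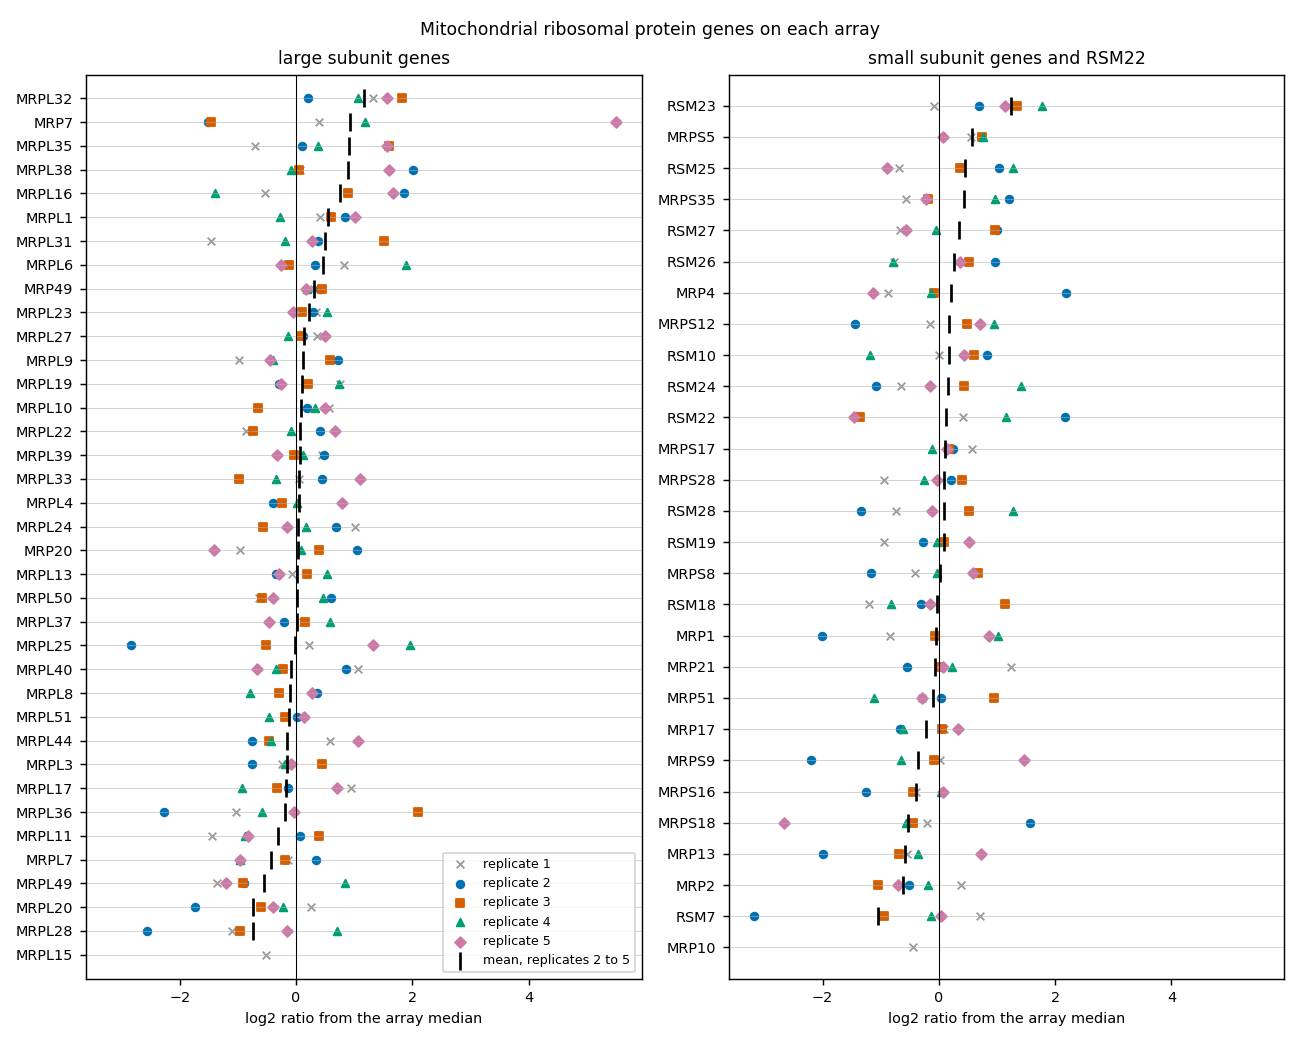
Log2 ratio from the array median (horizontal axis) of each mitoribosomal gene on each array, ordered by the mean of replicates 2 to 5 (black bar), with large subunit genes on the left and small subunit genes and RSM22 on the right. RSM23 and MRPL32 lead their columns with means of 1.24 and 1.16, and for most genes the points of different arrays fall on both sides of 0.

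Among the other large subunit genes, the highest means rested on a few arrays. MRPL35, which encodes the mitochondria-specific protein mL38, was at 0.10, 1.59, 0.37 and 1.56 on replicates 2 to 5, a mean of 0.91 ± 0.78 with limma's unadjusted p = 0.0539, and at -0.71 on replicate 1. Replicates 3 and 5 were far above the others. MRPL38, the gene of uL14m, a protein of the face that meets the small subunit, was at 2.02, 0.05, -0.09 and 1.59, with a mean of 0.89 ± 1.07. Its high values were on replicates 2 and 5, and the remaining arrays were near 0. On replicates 2, 3 and 5 both of its spots held values shared with neighbouring spots.

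MRP7 encodes bL27m, whose bacterial homologue reaches the peptidyl transferase centre. It was at -1.51, -1.46, 1.18 and 5.51 on replicates 2 to 5 and at 0.39 on replicate 1. The arrays went opposite ways, and the mean of 0.93 ± 3.30 (SD, n = 4) became -0.60 without replicate 5. MRPL25, which encodes mL59, was at -2.84, -0.52, 1.95 and 1.32, a mean of -0.02 ± 2.15 between arrays that were far below and far above 0. MRPL36, the gene of bL31m, a protein that bridges the subunits, had its low of -2.27 on replicate 2 and its high of 2.10 on replicate 3. MRPL16 (uL16m) changed sign likewise, at 1.86, 0.89, -1.39 and 1.67.

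Lower means were led in the large subunit by MRPL28 and MRPL20, which encode the mitochondria-specific proteins mL40 and mL58. MRPL20 was at -1.74, -0.60, -0.23 and -0.40 on replicates 2 to 5 and at 0.25 on replicate 1. It was below 0 on the 4 arrays of 1 platform, farthest on replicate 2, with a mean of -0.74 ± 0.68 and limma's unadjusted p = 0.0863. MRPL28 was at -2.56, -0.97, 0.70 and -0.16, a mean of -0.75 ± 1.39. With replicate 2 turned both means were above 0, at 0.13 for MRPL20 and 0.53 for MRPL28. MRPL49 (bL21m) averaged -0.54 ± 0.94 with limma's unadjusted p = 0.244. Its mean was -1.01 without replicate 4 (unadjusted p = 0.0389, limma), but -0.42 without replicate 2, -0.42 without replicate 3 and -0.32 without replicate 5. MRPL7 (uL5m, a protein of the central protuberance) averaged -0.44 ± 0.64.

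In the small subunit the lowest mean belonged to RSM7, which encodes uS7m, an early-binding protein of the head. It was at -3.18, -0.94, -0.14 and 0.04 on replicates 2 to 5 and at 0.71 on replicate 1. Replicate 2 was far below the others, and with that array turned the mean of -1.06 ± 1.48 (SD, n = 4) became 0.53. MRP2, the gene of the head protein uS14m, was steadier, at -0.51, -1.05, -0.18 and -0.70, a mean of -0.61 ± 0.36 with limma's unadjusted p = 0.102. It was at 0.39 on replicate 1. MRP13 (mS44) averaged -0.58 ± 1.12, and MRPS18, which encodes the platform protein uS11m, averaged -0.53 ± 1.73, or 0.19 without replicate 5. RSM22, the assembly protein, had the ratios 2.17, -1.36, 1.15 and -1.46, so that its mean of 0.13 ± 1.82 stood between arrays of opposite sign.

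Small values of small spread, or of 1 sign on all 5 arrays, formed the other extreme. MRP49, which encodes mL61, was at 0.41, 0.45, 0.18 and 0.17 on replicates 2 to 5 and at 0.30 on replicate 1, with the smallest SD of the group, 0.15, around a mean of 0.30. All 5 values were above 0, but on replicate 1 its spots were at 0.83 and -0.22, and on 3 arrays it held a value shared with a neighbouring spot. MRPS5, the gene of uS5m, a small subunit protein at the mRNA entry, was at 0.72, 0.74, 0.76 and 0.07 and at 0.55 on replicate 1. Replicate 5 was far below the others, and on replicate 3 the spots of MRPS5 were at 0.33 and 1.16. The mean of MRPS5 was 0.57 ± 0.34, again with shared values on 3 arrays. With MRPL32, these were the 3 genes above 0 on all 5 arrays.

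MRPS17 (uS17m) averaged 0.11 ± 0.16, MRPL23 (uL13m) 0.22 ± 0.25, MRPL27 (mL41) 0.14 ± 0.26 and MRPL51 (mL43) -0.12 ± 0.26, all from arrays on both sides of 0. Shared values were counted on 3 arrays each for MRPL23, MRPL27 and MRPL51. MRPL1, the gene of the stalk protein uL1m, averaged 0.55 ± 0.58, with 3 of 4 arrays above 0. MRPL31 (mL60) averaged 0.49 ± 0.72 but was the lowest of the group on replicate 1, at -1.46, where its spots were at -2.56 and -0.35. On all 4 of the other arrays it held a shared value. Over the 63 genes the median SD was 0.71, against 0.77 over all genes.

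The ratio of a mitoribosomal gene went with the ratios of whatever was printed around it. For each spot the median of the spots of other genes in a square of 7 by 7 positions was taken. Over the 63 genes the gene's value and this local median correlated at 0.84, 0.74, 0.73 and 0.90 on replicates 2 to 5, and over all genes at 0.76, 0.62, 0.57 and 0.70. The genes are not independent points, since neighbours share a print block. A value that neighbouring spots hold in common enters both sides. Over the members without one on the array, 40, 54, 51 and 35 genes, the correlations were 0.79, 0.75, 0.71 and 0.86. For MRP7 on replicate 5 the surrounding median was 2.75, and its spots were at 6.20 and 4.81. For MRPL28 on replicate 2 it was -2.18 beside the gene's -2.56, and that gene had no spot where shared values were counted. For RSM22 on that array it was 2.34 beside 2.17, where both spots of RSM22 held a value shared with neighbouring spots. The extremes of these genes thus lay in parts of the array where other genes had ratios of the same sign. The part of array position in the ratios was not tested.

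**Figure D3:**
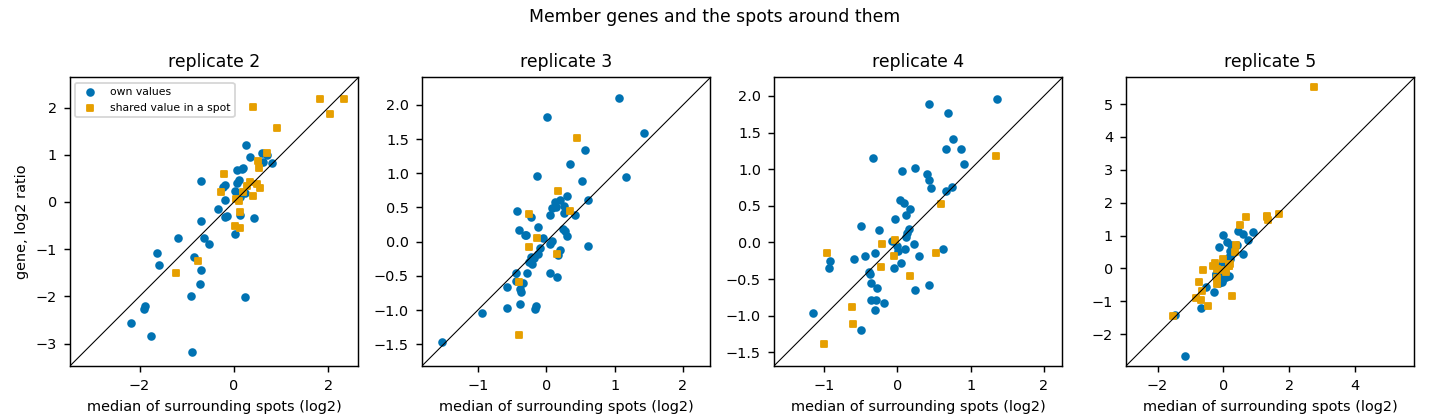
Log2 ratio of each mitoribosomal gene (vertical axis) against the median of the surrounding spots of other genes (horizontal axis, log2) on replicates 2 to 5, with genes that hold a value shared with a neighbouring spot as orange squares; the line marks equality. The points follow the line on each array, with r of 0.84, 0.74, 0.73 and 0.90.

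Taking the local median away from each spot narrowed the spread between arrays for 51 of the 63 genes, and the median SD fell from 0.71 to 0.43, much as that of all genes fell from 0.77 to 0.47. RSM23 then had a mean of 0.77 with limma's unadjusted p = 0.00600 and was the only one of the 63 under 0.05. MRPL32 was at 0.67 with limma's unadjusted p = 0.0816. MRPL35 was at 0.32, MRP7 at 0.59, MRPS5 at 0.16 and MRPL16 at -0.06, and on the lower side RSM7 was at -0.69 and MRP2 at -0.38. The group's shift was 0.02. Identical values in neighbouring spots, counted in the outer 3 rows and columns only, touched 31 of the 63 genes. They made up 30.2, 11.1, 11.1 and 38.1% of the members' spots on replicates 2 to 5. The shares over all spots were 28.6, 8.07, 14.6 and 37.4%. RSM23, RSM7, MRPL20 and MRPL28 had no spot in the outer 3 rows and columns, so no shared value could be counted for them. With replicate 2 turned the mean of MRPL32 was 1.06 (unadjusted p = 0.0386, limma), and the means of 16 named genes changed sign. Among the members these included MRPL38 (-0.12), MRPL16 (-0.17), MRP13 (0.42), MRPL25 (1.40), MRPL36 (0.94) and RSM22 (-0.96), and among the related genes named further on FYV4, PET123, MNP1, IFM1, MSK1 and SOV1.

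**Figure D4:**
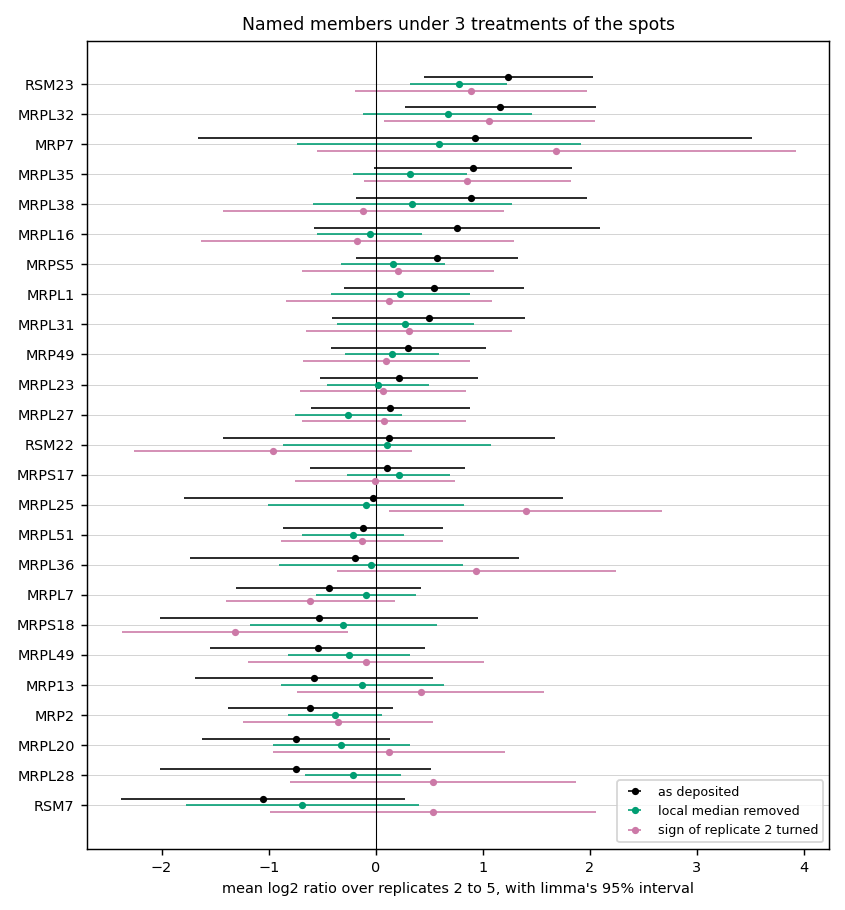
Mean log2 ratio over replicates 2 to 5 with limma's 95% interval (horizontal axis) for the 25 named genes, as deposited, with the local median removed and with the sign of replicate 2 turned. RSM23 keeps a mean above 0 under the 3 treatments (1.24, 0.77 and 0.89), and RSM7 moves from -1.06 to 0.53 when replicate 2 is turned.

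Large and small subunit genes did not part in a repeatable way. The large subunit median exceeded the small by 0.49 on replicate 2 and 0.04 on replicate 4, and was lower by the differences -0.34 on replicate 3 and -0.01 on replicate 5. The mean difference was 0.05 ± 0.34 (SD, n = 4), and replicate 1 gave 0.52. Of the 36 large subunit genes measured on 4 arrays 23 had a mean above 0, and of the 26 small subunit genes 15 did, beside 48.7% of all genes. The members with a homologue in bacterial ribosomes, 40 genes, and those found only in mitochondrial ribosomes, 22 of which were measured on 4 arrays, differed by 0.40, -0.14, -0.38 and -0.11, a mean of -0.06 ± 0.33 with arrays on both sides of 0. With replicate 2 turned this difference was below 0 on all 4 arrays, at a mean of -0.26 ± 0.16, and without replicate 2 it was -0.21, while replicate 1 gave 0.50. The large minus small difference was -0.20 ± 0.26 with replicate 2 turned, -0.09 ± 0.13 with the local median removed and -0.10 without replicate 2.

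One corner of this division stood out on replicate 1. It was picked after its values were seen, so it has no test. On replicate 1 all 10 small subunit genes found only in mitochondrial ribosomes were below 0, with a median of -0.66. They are RSM23, RSM25, MRPS35, RSM27, RSM26, RSM24, RSM28, MRP1, MRP13 and MRP10. Of all 5583 genes 2949 were below 0 on that array, whose repeatability was low. Consecutive spots of different names correlated at 0.48 on it, and the part of array position in these 10 values was not tested. The spots of MRP13 were at -1.58 and 0.48 there, and those of RSM23 at -0.33 and 0.16. On the other 4 arrays 7 of the 9 that were measured had a mean above 0, where 48.7% of all genes did. The shift of the 9 from the other genes was 0.69, 0.42, 0.99 and -0.11 on replicates 2 to 5, a mean of 0.50 ± 0.47. That mean was 0.29 ± 0.28 after removing the local median and 0.15 ± 0.72 after turning replicate 2, and replicate 5 was below 0 as replicate 1 was. RSM25 (mS23), for example, was at -0.69 on replicate 1 and averaged 0.45 ± 0.97 on the other arrays.

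Set against the ribosome of the cytosol, the mitochondrial genes were higher on the 4 arrays of 1 platform. The median of the 63 genes exceeded that of 132 cytosolic ribosomal protein genes by 0.20, 0.33, 0.29 and 0.99 on replicates 2 to 5, a mean of 0.45 ± 0.36 (SD, n = 4). On replicate 1 the difference was -0.16. Removing the local median left 0.40 ± 0.47 with replicate 2 at -0.06, and turning replicate 2 left 0.36 ± 0.49. The difference lay mostly on the cytosolic side, where 100 of 132 genes had a mean below 0, beside 2843 of all 5539 genes. The cytosolic shift from the other genes was -0.08, -0.29, -0.37 and -0.94 on replicates 2 to 5, largest on replicate 5, and 0.07 on replicate 1.

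The rest of the mitochondrial translation apparatus was followed through 5 lists drawn up from textbook knowledge. Their counts of means above 0 stand beside a share of 48.7% over all genes. Mitoribosomal proteins whose symbols the naming rule misses had 9 of 14 means above 0, 0 genes under an unadjusted p of 0.05, and a shift of 0.16 ± 0.16 (SD, n = 4). In that list FYV4, which encodes a small subunit protein, averaged -1.04 ± 1.03, PET123, another small subunit gene, averaged -0.80 ± 0.96, and MNP1, the gene of the stalk protein bL12m, averaged 0.64 ± 0.56. The 11 mitochondrial translation factor genes had 4 means above 0 and a shift of 0.03 ± 0.26, with 0 genes under 0.05. IFM1, the initiation factor 2 gene, was at -1.92, -0.20, -0.37 and -0.65 and at -1.24 on replicate 1, below 0 on all 5 arrays, with a mean of -0.79 ± 0.78. GUF1, the gene of a homologue of the bacterial elongation factor LepA, was above 0 on all 5, with a mean of 0.60 ± 0.54, and the initiation factor 3 gene AIM23 averaged -0.51 ± 0.68.

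The 17 genes that charge mitochondrial tRNAs had 7 means above 0 and a shift of -0.12 ± 0.10, and 1 of the 17 was lower at an unadjusted p under 0.05, where 3.99% of all genes were. This was MSF1, the phenylalanyl-tRNA synthetase gene, at -2.12, -2.44, 0.17 and -3.85 on replicates 2 to 5 and at 1.05 on replicate 1. Its mean was -2.06 ± 1.66 with limma's unadjusted p = 0.0116 and adjusted p = 0.834. With the local median removed its mean was -0.86 (unadjusted p = 0.0744, limma), with replicate 2 turned it was -0.999 (unadjusted p = 0.299, limma), and over all 5 arrays it was -1.44 (unadjusted p = 0.0528, limma). AIM10, a putative prolyl-tRNA synthetase gene, averaged -0.67 ± 0.75, and MSK1, the lysyl-tRNA synthetase gene, averaged -0.62 ± 1.22. Of 16 genes of mitoribosome assembly and RNA modification 9 had a mean above 0, and the shift was 0.07 ± 0.34. Of the 16, 1 was lower at an unadjusted p under 0.05, near the 3.99% of all genes. It was MRM1, which encodes a methyltransferase of the large rRNA. MRM1 had a mean of -1.25 ± 1.29, limma's unadjusted p = 0.0439, limma's adjusted p = 0.834 and a ratio of -1.49 on replicate 1. Its mean was -0.58 (unadjusted p = 0.217, limma) after local correction and -0.048 (unadjusted p = 0.946, limma) with replicate 2 turned. It was also above 0.05 by limma without replicate 2 (mean -0.87), without replicate 3 (-1.52), without replicate 5 (-0.91), with replicates 3 and 5 averaged (-1.21) and with array weights (-0.95). The RNA helicase gene MSS116 averaged 0.64 ± 0.60 and the GTPase gene MTG1 averaged 0.42 ± 0.25, above 0 on all 5 arrays.

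Activators of single mitochondrial mRNAs, 16 genes with 6 means above 0, had a shift of -0.01 ± 0.29 and 0 genes under 0.05. PET309, the activator of COX1 translation, averaged -1.05 ± 1.82, CBP3, which acts on cytochrome b, averaged 0.44 ± 0.62, and SOV1, which acts on the ribosomal protein Var1, averaged -0.65 ± 1.46. PET309 was at -0.33 without replicate 3 and at -0.25 after local correction, and SOV1 was at -0.005 without replicate 2. PUF3 averaged 0.62 ± 0.70 and was at -1.50 on replicate 1. The transcripts of the tagged proteins had ratios on both sides of 0. YRA1 was at -0.70, 1.41, 0.20 and -0.01 on replicates 2 to 5, a mean of 0.23 ± 0.88. MEX67 was at 0.76, -0.03, -1.02 and -0.63, a mean of -0.23 ± 0.78. With replicate 2 turned the means were 0.57 and -0.61.

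**Figure D5:**
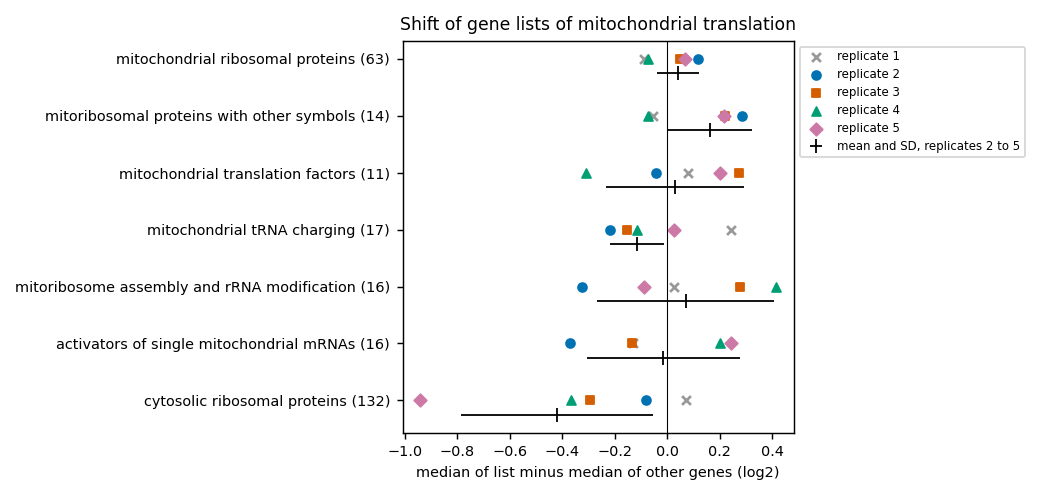
Median of each gene list minus the median of the other genes (horizontal axis, log2) on each array, with the mean and SD of replicates 2 to 5 in black and the number of measured genes in brackets. The mitochondrial ribosomal proteins sit at 0.04 ± 0.08 and the cytosolic ribosomal proteins at -0.42 ± 0.37.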

How the data were processed

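The deposited values are log10 ratios of 1 spot each, a scale worked out from the values: of 2000 spots drawn per array, between 1.65 and 18.45% were ratios of whole numbers up to 3000 in base 10, against at most 0.65% in base 2 or base e. How the images were scanned and corrected, and any normalization, was not described in the labels. Only ratios were used, so signal over background and depth are unknown. The number of arrays limits the precision. Ratios were converted to log2, each array was centred on its median (deposited medians were 0.32, 1.96, -2.81, -1.45 and -1.59 in log2) and the spots of a gene were averaged. Genes took the names of the platform annotation, updated through the RefSeq table of assembly R64, which matched 5578 of 5583. On the 4-array platform 11138 of 12800 spots had a gene name, and 6695 of 7680 on the other. One row without a numeric ID was left out.

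Replicates 2 to 5 were fitted with limma 3.58.1 (R 4.3.3), each gene with values on at least 3 arrays against 0, two-sided, adjusted by Benjamini-Hochberg over all genes at 0.05. The fit was tested on simulated data. Replicate 1, on the other platform, was set beside them. Summaries used Python 3.11.15 and scipy 1.17.1. The members, the lists and the naming rule were chosen with earlier results of these data known. Named members were the 12 of smallest p, the 8 of highest and 8 of lowest mean, the 5 of smallest and 5 of largest SD and those of 1 sign on 5 arrays, 25 in all, and from each related list the 3 of smallest p. Other genes are named where they are an extreme of an array, under 0.05 in an alternative run, or part of a group described as picked after its values were seen. Alternatives changed centring, scaling, local correction, shared values, the sign of replicate 2, arrays included, spot summary and weights. No coordinates are given because no build is named.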

Additional observations from a re-analysis of the deposited data

Results flagged for a closer look

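On replicates 2 to 5, 59 groups of 4 values were examined, 55 genes named in the text and 4 group shifts or differences. In 5 of them 1 array lay far from the other 3 by Dixon's criterion. The criterion's nominal rate is about 1 group in 20, but many of these genes were named for their values on the same arrays. That rate therefore does not say how many to expect here, and the share over all genes was not computed. MRPL49 was at 0.85 on replicate 4 while the other arrays lay between -1.21 and -0.90. MRPS5 was at 0.067 on replicate 5, below the other arrays at 0.72 to 0.76. MSK1 was at -2.45 on replicate 2 and between -0.042 and 0.053 on the other arrays. CBP3 was at -0.50 on replicate 3, with the others between 0.70 and 0.80. QRI5 was at 0.049 on replicate 2, below the others at 0.75 to 0.80.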

How the results depend on the processing

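No member passed the adjusted threshold under any alternative run. At an unadjusted p under 0.05, the 2 higher members became 1 after local correction and after leaving out shared values. They also became 1 with replicates 3 and 5 averaged and with the slide 2 arrays alone. There were 3 with mean centring, equal spread or array weights. With replicate 2 turned the 3 were MRPS12, MRPL25 and MRPL32 (limma's unadjusted p = 0.0320, 0.0356 and 0.0386), while RSM23 was at 0.0951. Leaving out each array in turn gave 1 to 3. One member was lower when replicate 2 was turned, and 0 to 1 when each array was left out (MRPL49 without replicate 4). The shift of all members was -0.02 with replicate 2 turned and above 0 otherwise. Large minus small ranged from -0.20 with replicate 2 turned to 0.17 without replicate 3. Bacterial minus mitoribosome only ranged from -0.26 with replicate 2 turned to 0.051 without replicate 4. Values of opposite sign from the reported mean were, with replicate 2 turned, MRP13 0.42, MRPL16 -0.17, MRPL20 0.13, MRPL25 1.40, MRPL28 0.53, MRPL36 0.94, MRPL38 -0.12, MRPS17 -0.012, RSM22 -0.96, RSM7 0.53, MNP1 -0.023, PET123 0.057, FYV4 0.029, IFM1 0.18, MSK1 0.61 and SOV1 0.65. They were MRPL16 -0.058 and MRPL27 -0.26 with the local median removed, MRPL25 0.057 with mean centring, MRPL25 0.18, MRPL36 0.039 and RSM22 -0.082 with arrays scaled to equal spread, MRPL25 0.26, MRPL36 0.38 and RSM22 -0.29 with array weights, MRPL25 0.027 with all 5 arrays, and MRPL25 0.14 and YRA1 -0.17 on slide 2 alone. Leaving out each array in turn, the means ranged from -0.68 to 0.92 for MRPL25, -0.96 to 0.50 for MRPL36, -0.56 to 0.65 for RSM22, -0.60 to 1.74 for MRP7, -1.23 to 0.19 for MRPS18, -0.17 to 0.53 for YRA1 and -0.56 to 0.032 for MEX67. The cause of these changes was not tested. With shared values left out, 50 members kept values on at least 3 arrays and the others gave none. Slide 1 held replicate 3 alone and has no value of its own. No paired analysis was possible because both precipitates share each array and there is 1 group.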

Other observations

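These genes were picked after their values were seen. RSM24 and RSM28, which encode the mitochondria-specific small subunit proteins mS35 and mS46, had nearly equal ratios on every array. RSM24 was at -1.09, 0.43, 1.41 and -0.15 on replicates 2 to 5 and RSM28 at -1.34, 0.51, 1.27 and -0.12, with -0.65 and -0.74 on replicate 1. The genes were printed side by side in 1 block of the 4-array platform, where the surrounding median was -1.64 for RSM24 and -1.60 for RSM28 on replicate 2. MRPS12 and RSM19, which are neighbours on chromosome XIV, showed no such likeness, at -1.44, 0.49, 0.94 and 0.70 for MRPS12 and -0.27, 0.09, -0.03 and 0.52 for RSM19. Other members printed close together were also less alike than RSM24 and RSM28. MRPL22 and MRPS17, likewise side by side, differed by 0.91 on replicate 3 and 0.52 on replicate 5. MRPL20 and MRPL8 differed by 2.10 on replicate 2. The part of array position in such likeness was not tested. MRPL6, which encodes uL6m, was at 1.90 on replicate 4, where its adjacent spots were at 3.72 and 0.073, the widest gap among the members.

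QRI5, a mitoribosomal protein gene outside the naming rule, was at 0.05, 0.75, 0.77 and 0.80 on replicates 2 to 5 and at 0.76 on replicate 1, above 0 on all 5 arrays. With the local median removed its mean of 0.59 ± 0.36 (SD, n = 4) was again 0.59, and no shared value was counted for it. Gene length, with a median of 714 bases for the members and 1269 for all genes, had a Spearman rho of 0.17 with the mean ratio across the 63 members and 0.0072 across all genes, given as a description across genes.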
